A study of Mus musculus with 6 samples.

Results

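The class IIa histone deacetylases (Hdac4, Hdac5, Hdac7 and Hdac9) and the Mef2 transcription factors (Mef2a, Mef2b, Mef2c and Mef2d) were described in cultures kept in normal or high glucose. These 8 genes were chosen by family membership, with their measured change between the 2 glucose conditions in view, so their high against normal glucose values are given as a description without a test. They were 8 of the 55487 gene identifiers in the count table, and all 8 were among the 19015 genes with enough counts to be compared. Bulk RNA-sequencing measured 3 cultures grown with 5 mmol/L glucose (normal) and 3 grown with 20 mmol/L (high), each for 48 hours. Every culture came from the skin of C57BL/6 mice aged 2 to 3 months, with no transgene or gene deletion named in the labels, and the tissue of 4 to 6 mice was pooled for an isolation with CD31 MicroBeads. CD31 is the endothelial surface protein encoded by Pecam1, and the labels name the cells endothelial cells (ECs). The study counts the replicates of these groups as mice, while the labels describe pooled skin and do not say whether each culture was a separate isolation. P values weigh the difference between groups against the spread between these samples, some or all of which may then be technical.

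Class IIa histone deacetylases carry little catalytic activity of their own and act mainly as signal-dependent corepressors. They bind MEF2 factors on DNA and bring in the NCoR complex with HDAC3. When calcium/calmodulin-dependent kinases, protein kinase D or salt-inducible kinases phosphorylate them, 14-3-3 proteins hold them in the cytoplasm and MEF2 target genes are released. In ECs, HDAC7 and HDAC5 are known for restraining MEF2 targets, and HDAC9 is known as a member whose transcription is itself driven by MEF2 in muscle.

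The markers of the labelled cell type were low. Pecam1, Tie1, Emcn, Erg and Esam had at most 23 counts in any sample, against total counts of 120192466 to 146881356 per sample. Vwf, Cdh5 and Tek had 73 to 302 counts, Kdr 576 to 777 and Egfl7, the most abundant, 1113 to 1464. The 10 endothelial markers together amounted to 19.8 to 20.8 normalized CPM (counts scaled to a common library total after the TMM correction for library composition) in normal glucose and 18.7 to 19.2 in high glucose, with 2 genes higher (Tek and Erg) and 2 lower (Cdh5 and Egfl7). The 10 fibroblast markers summed to between 38600 and 41800 CPM in normal glucose and to between 70800 and 75700 in high glucose. Of these fibroblast genes, 8 were higher and 1 lower in high glucose at an adjusted P value under 0.05 (edgeR, quasi-likelihood test, Benjamini-Hochberg adjusted, the rule behind every call here, the endothelial ones included). By this rule 16.9% of all tested genes were called higher and 14.5% lower. The smooth muscle and pericyte list ran the other way, from 634 to 709 CPM in normal glucose and from 533 to 560 in high glucose, with 1 gene higher and 5 lower of 8. The adipocyte list summed to 58.8 to 61.6 CPM and 81.6 to 84.7 CPM, with 3 of 4 genes higher. Skeletal muscle markers, which matter for Mef2 factors, summed to 6.25 to 7.92 CPM and 2.8 to 2.86 CPM, and the muscle-determining factors Myod1, Myf5 and Myog were at 0 in every sample. The macrophage list (7 genes, 2 lower) summed to 8.44 to 9.56 CPM and 5.77 to 6.69 CPM, and the Schwann cell and melanocyte list (6 genes, 1 higher and 2 lower) to 14.8 to 16.1 CPM and 12.2 to 13 CPM. The 5 keratinocyte genes, of which 1 was higher, stayed at or below 3 CPM, and 5 of 6 lymphocyte genes were at 0 in every sample. The part of these cell type genes in the values below was not tested. In bulk samples, fewer cells of a type cannot be told apart from less RNA per cell.

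**Figure D1:**
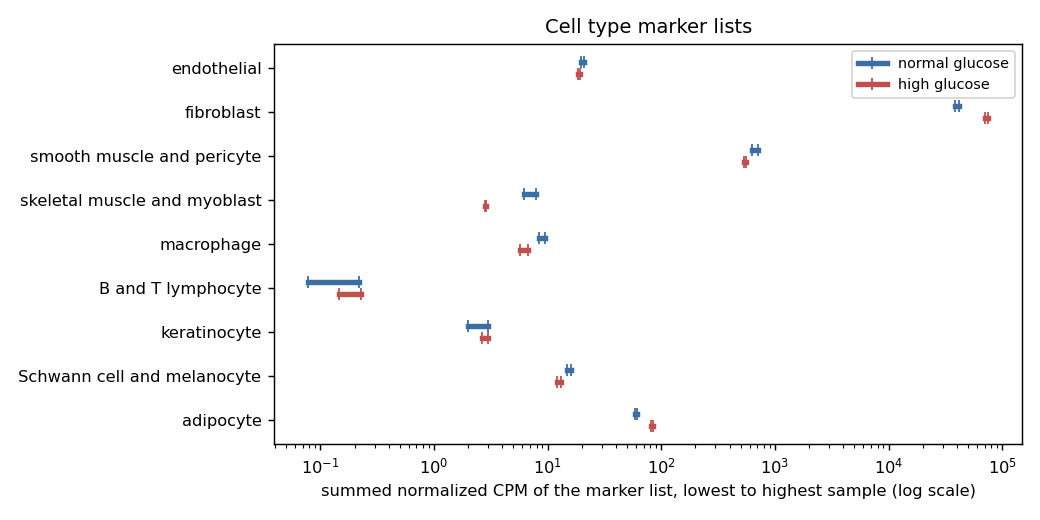
Summed normalized CPM of each cell type marker list (x axis, log scale), drawn as a bar from the lowest to the highest of 3 samples, blue for normal and red for high glucose. The endothelial list lay near 20 CPM in both groups, and the fibroblast list reached 75700 CPM.

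Among the class IIa deacetylases, Hdac9 stood apart. Hdac9 had 2.73, 3.13 and 3.17 CPM in normal glucose replicates 1, 2 and 3, and 6.82, 8.01 and 8.01 CPM in high glucose replicates 1, 2 and 3. Behind these values stood 342, 444 and 406 counts (normal) and 968, 931 and 1080 counts (high). The groups were far apart, since the lowest high glucose sample was 2.15 times the highest normal glucose sample. The mean went from 3.01 ± 0.243 CPM (SD, n = 3) to 7.62 ± 0.685 CPM (n = 3), a ratio of 2.53 and a log2 fold change of 1.34 (SE 0.10). Only 232 of the 19015 genes had a larger log2 fold change upwards. Without normal glucose replicate 1, the lowest sample, the log2 fold change of Hdac9 was 1.25.

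Hdac9 lies on the minus strand of chromosome 12 (chr12:34047580-34917095, GRCm38), where it spans 869.5 kb. No other annotated gene shares its exons. RefSeq gives 2 start sites for it on GRCm38.p6, a distal and an internal one. The windows from 250 bases before to 50 after each start are shown because Hdac9 was the member with the largest change, 5′ to 3′ on the minus strand, all in lower case as neither holds the motifs searched for:
Hdac9 distal start, chr12:34917046-34917345: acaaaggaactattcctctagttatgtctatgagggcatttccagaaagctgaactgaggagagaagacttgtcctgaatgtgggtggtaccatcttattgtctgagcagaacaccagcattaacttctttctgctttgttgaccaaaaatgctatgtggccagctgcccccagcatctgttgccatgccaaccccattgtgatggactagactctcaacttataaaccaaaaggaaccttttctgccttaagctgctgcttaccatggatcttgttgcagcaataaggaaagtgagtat
Hdac9 internal start, chr12:34528840-34529139: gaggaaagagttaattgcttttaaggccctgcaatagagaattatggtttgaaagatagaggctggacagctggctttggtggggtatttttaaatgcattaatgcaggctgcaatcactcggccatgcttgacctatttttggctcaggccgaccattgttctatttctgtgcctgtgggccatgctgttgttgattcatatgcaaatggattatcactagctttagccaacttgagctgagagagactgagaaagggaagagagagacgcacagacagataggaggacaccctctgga
G and C made up 44.0% and 45.3% of these windows, with 0 and 3 CpG dinucleotides. The windows of Mef2c were similar, with 35.7%, 47.0% and 48.3% G and C and 1, 10 and 4 CpG. The start of Hdac4 (chr1:92180292-92180591, minus strand), by comparison, had 68.0% G and C and 32 CpG. Counts per gene do not separate transcripts from the 2 Hdac9 starts.

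Hdac4, a broadly expressed class IIa deacetylase, had 33.1, 33.2 and 33.2 CPM in normal glucose replicates 1 to 3, and 40.3, 37.9 and 39.2 CPM in high glucose. All high glucose samples lay above all normal glucose samples, by a margin that was small beside the level. The mean went from 33.2 ± 0.0769 to 39.2 ± 1.21 CPM (SD, n = 3 each), a log2 fold change of 0.24 (SE 0.050) or 17.9%. This difference was much smaller when library size alone was used for scaling (log2 fold change 0.12) or when each sample's trend with transcript length was removed (0.05). The lincRNA Gm26720, on the opposite strand, shares 3536 of its 3538 exonic bases with Hdac4 and was not analysed here. Without a stated strand setting, reads of these genes cannot be told apart.

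Hdac7, the class IIa deacetylase best known from ECs, and Hdac5 were expressed at much higher levels. Hdac7 had 170, 177 and 182 CPM in normal glucose and 202, 184 and 195 CPM in high glucose. The groups did not overlap, but the lowest high glucose sample lay close to the highest normal glucose sample, and the log2 fold change of Hdac7 was 0.14 (SE 0.055). Hdac5 had 175, 172 and 188 CPM in normal glucose and 197, 190 and 187 CPM in high glucose. Here the groups overlapped, and the log2 fold change of 0.10 (SE 0.054) turned to -0.015 when library size alone was used for scaling. Hdac7 shares 29 exonic bases with Slc48a1 on the opposite strand, which had 22595 to 29911 counts per sample. Hdac5 shares 111 with the microRNA gene Mir8101 on its own strand, so the origin of reads at these bases is uncertain.

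The Mef2 factors bind DNA and recruit the deacetylases, and their log2 fold changes lay between 0.03 and 0.34. Mef2d, the most abundant of them, had 106, 113 and 111 CPM in normal glucose and 122, 116 and 119 CPM in high glucose. All high glucose values of Mef2d lay above the normal glucose values, by a small margin, and the log2 fold change of Mef2d was 0.12 (SE 0.051). Mef2a had 43.7, 52.0 and 48.9 CPM in normal glucose and 47.0, 51.8 and 49.1 CPM in high glucose. These ranges overlapped, and the sign of its log2 fold change of 0.03 (SE 0.070) turned under library size scaling (-0.083), upper quartile scaling (-0.011) and the removal of the transcript length trend (-0.064), and without normal glucose replicate 1 (-0.052) or high glucose replicate 2 (-0.019). Mef2c, the member needed for vascular and cardiac development, had 7.87, 8.91 and 7.96 CPM in normal glucose and 9.26, 8.70 and 9.47 CPM in high glucose. The highest normal glucose sample of Mef2c lay above the lowest high glucose sample, and the log2 fold change was 0.15 (SE 0.079). Mef2b was barely detected, with 18, 20 and 24 counts under normal and 29, 26 and 23 under high glucose. Its log2 fold change of 0.34 (SE 0.27) came with overlapping groups. Mef2a shares 302 exonic bases with Lysmd4 on the opposite strand, Mef2d 531 with 1700113A16Rik, and Mef2b 62 with Borcs8 on its own strand, so these counts are uncertain by the share of reads falling there. The 62 bases matter most for Mef2b, since Borcs8 had 2091 to 2705 counts per sample.

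**Figure D2:**
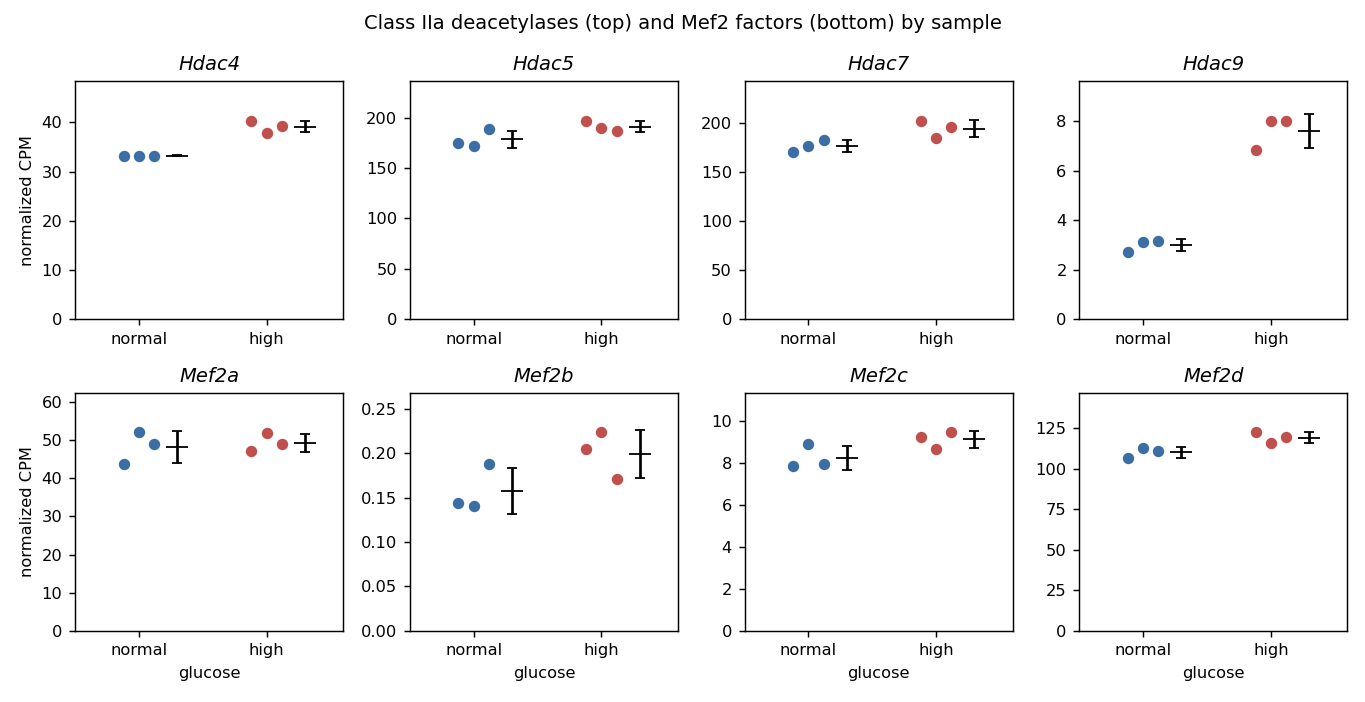
Normalized CPM (y axes, each from 0 and with its own range) of the 8 genes in each sample, blue for normal and red for high glucose, with the mean and SD of 3 samples in black. Hdac9 separated widely, from at most 3.17 to at least 6.82 CPM, while the normal and high glucose values of Hdac5, Mef2a, Mef2b and Mef2c overlapped.

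Of the 8 genes, 2 (Hdac4 and Hdac9) were called higher and 0 were called lower, where 16.9% of all tested genes were called higher and 14.5% lower (3212 and 2757 genes, and 1819 and 4884 under library size scaling). The groups did not overlap, with high glucose above, for 4 of 8 (Hdac4, Hdac7, Hdac9 and Mef2d) and with high glucose below for 0, where this held for 25.1% and 21.3% of all tested genes. Since the members were chosen with this contrast in view, nothing is read from these counts. The median log2 fold change was 0.19 over the 4 deacetylases and 0.13 over the 4 Mef2 factors, against 0.0062 over all tested genes, whose median size of change in either direction was 0.20.

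Transcript length moved with the contrast. Genes with longest annotated transcripts in the highest 25% by length (3108 genes of at least 4856 bases, among genes with a mean log2 CPM of at least 1) had a median log2 fold change of 0.13 (quartiles -0.03 and 0.30), and those in the lowest 25% (3110 genes of up to 2177 bases) a median of -0.071. Of the 8 members, 7 have transcripts of 5.18 kb to 8.1 kb and so fall among the longest, Mef2b at 1.34 kb being the exception. The log2 fold changes of Hdac5, Hdac7, Mef2a, Mef2c and Mef2d lay between 0.03 and 0.15, near the median of genes of their length, and that of Hdac4 lay inside the quartiles. Hdac9, at 1.34, was far above them, and its value after removal of the length trend was 1.16. Normal glucose replicates also differed by length: replicate 1 had a median deviation from the other normal glucose samples of -0.13 on the log2 scale among the longest genes and of 0.12 among the shortest, and replicate 2 had the opposite pattern (0.12 and -0.12). For normal glucose replicate 3 and the high glucose replicates these medians lay between -0.023 and 0.02. The part of RNA quality or library preparation in this was not tested.

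**Figure D3:**
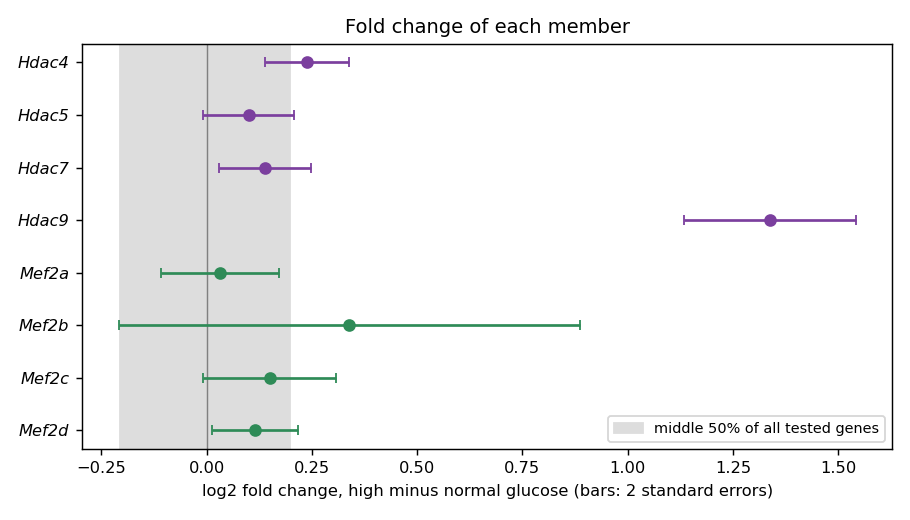
Log2 fold change of each gene, high minus normal glucose (x axis, points with bars of 2 standard errors; purple, class IIa deacetylases; green, Mef2 factors), over a grey band that spans the middle 50% of all tested genes. Hdac9 lay at 1.34, and the 7 others between 0.03 and 0.34.

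Compared per kilobase of exon, the order of the members was the same in both conditions. In normal glucose it ran from Hdac7 (26.1 CPM per kb) over Hdac5 (20.3), Mef2d (18.4), Mef2a (3.28), Hdac4 (2.10), Mef2c (0.525) and Hdac9 (0.205) to Mef2b (0.112). No neighbours in this order overlapped between their 3 normal glucose samples, the closest being Hdac5 (19.6 to 21.5) and Mef2d (17.8 to 18.9). Levels per length depend on the transcript assumed. With the longest annotated transcript in place of all exons, a choice made after seeing the data, Hdac7 (32.9 to 35.1 CPM per kb) and Hdac5 (31.9 to 34.9) overlapped, and the order was kept. In high glucose, Hdac9 reached 0.465 to 0.546 CPM per kb of exon, just below Mef2c at 0.554 to 0.603.

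Hdac9 remained the least abundant class IIa deacetylase. Of the summed class IIa level per kb of exon, Hdac7 made up 53.5% in normal and 53.7% in high glucose, Hdac5 41.7% and 40.8%, and Hdac4 4.31% and 4.63%. Hdac9 made up 0.421% ± 0.0257 (SD, n = 3) in normal and 0.974% ± 0.116 (n = 3) in high glucose. The family sum itself went from 48.7 ± 1.76 to 53.5 ± 1.77 CPM per kb (9.78%), and from 48.5 to 53.0 CPM per kb (9.18%) when Hdac9 was left out, so most of that difference lay in Hdac7 and Hdac5. It depends on the scaling, since the log2 fold changes of Hdac7 and Hdac5 were 0.023 and -0.015 under library size scaling and 0.054 and 0.0061 with the length trend removed. Among the Mef2 factors, Mef2d made up 82.4% and 83.0% of the sum, Mef2a 14.7% and 14.01%, Mef2c 2.35% and 2.43%, and Mef2b 0.503% and 0.593%, and the sum went from 22.3 ± 0.883 to 23.98 ± 0.414 CPM per kb.

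**Figure D4:**
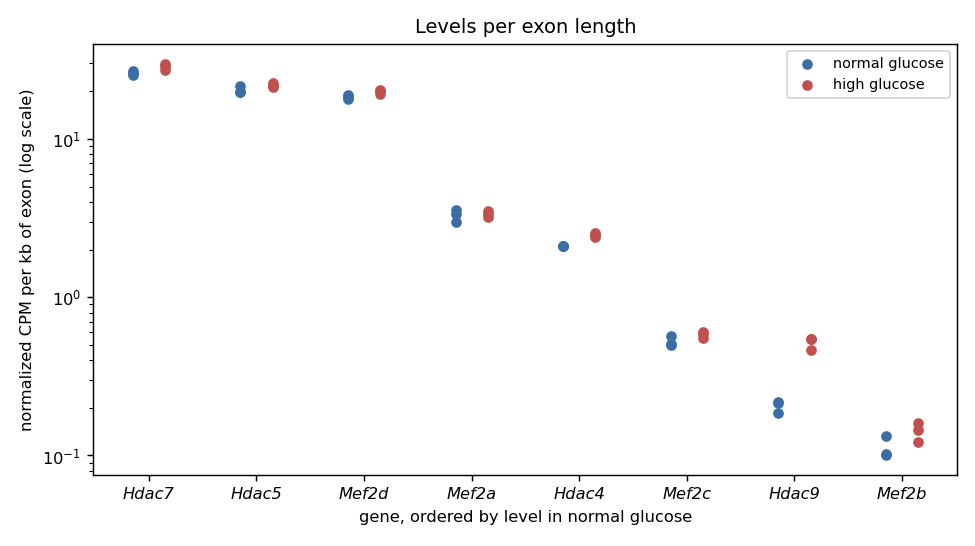
Normalized CPM per kilobase of exon (y axis, log scale) of the 8 genes, ordered by their level in normal glucose, with 1 point per sample. Levels spanned from 0.112 CPM per kb for Mef2b to 26.1 for Hdac7 in normal glucose, and Hdac9 in high glucose came close to Mef2c.

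The 5 protein-coding genes whose pattern over the 6 samples was most like that of Hdac9, by root mean square difference of log2 CPM centred on each gene's mean among 14807 genes, were Prokr1 (0.043), C1qtnf7 (0.045), Nat8f3 (0.061), Aldh1a2 (0.065) and Bmf (0.066). Prokr1 encodes a prokineticin receptor, Aldh1a2 the retinaldehyde dehydrogenase that makes retinoic acid, and Bmf a BH3-only regulator of apoptosis. Their log2 fold changes lay between 1.27 (C1qtnf7) and 1.40 (Nat8f3), near the 1.34 of Hdac9, which follows from how they were picked. They differed in level, from 1.07 CPM for Prokr1 to 27.2 CPM for Bmf in normal glucose.

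Genes beside the called members were examined by position. Twist1, a basic helix-loop-helix factor of mesenchymal cells that lies 87751 bases from Hdac9, had 81.6, 76.3 and 80.2 CPM in normal glucose and 89.0, 92.7 and 84.9 CPM in high glucose. The groups of Twist1 did not overlap, and its log2 fold change was 0.16 (SE 0.055, edgeR adjusted P = 0.0438). That call was kept in 4 of 17 other settings and was lost when normal glucose replicate 2 (0.13, adjusted P = 0.114) or 3 (0.16, 0.0995), or high glucose replicate 1 (0.14, 0.171), 2 (0.12, 0.201) or 3 (0.18, 0.0903), was left out (edgeR adjusted P values). On its other side Prps1l1, a testis gene, was counted 0, 0 and 1 times under normal and 0, 6 and 6 times under high glucose, too few to be compared. Twist2, a relative of Twist1 that lies 80751 bases from Hdac4, had 155, 116 and 121 CPM in normal glucose and 81.2, 83.2 and 77.5 CPM in high glucose. Twist2 fell by 0.70 on the log2 scale (SE 0.098, edgeR adjusted P = 3.94e-04), with normal glucose replicate 1 well above the other normal glucose samples. On the far side of Hdac4, the log2 fold change of Ndufa10, a subunit of mitochondrial complex I, was -0.098, short of the threshold.

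The genes that act on or with these 8 were taken from lists of 99 genes, of which 94 had enough counts. The lists were chosen with earlier results of these data known. Their shares, fold changes and P values are therefore a description and no independent evidence. Of the 94, 26 (27.7%) were called higher and 12 (12.8%) lower, beside 16.9% and 14.5% of all tested genes, and their median log2 fold change was 0.097. Library size scaling, which shifts the median of all genes by -0.115, turned this split to 13 higher and 22 lower. For 14 of the 17 list genes that the naming rule picked and that were called higher, the lowest value was that of normal glucose replicate 1, which was also the lowest sample for 59.4% of all genes called higher.

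The list of kinases that phosphorylate class IIa deacetylases also holds Camkk1, Camkk2 and Stk11, which lie upstream of such kinases. It went in both directions, with 6 of 21 higher, Camkk2 among them, and 2 lower, beside 16.9% and 14.5% of all tested genes. The median log2 fold change of the list was 0.084, and -0.031 under library size scaling. Sik1, a salt-inducible kinase, had 15.5, 17.0 and 16.1 CPM in normal glucose and 23.8, 20.5 and 22.9 CPM in high glucose, and rose by 0.47 on the log2 scale (SE 0.070, edgeR adjusted P = 5.94e-04). Its relative Sik2 rose by 0.50 (SE 0.12, edgeR adjusted P = 0.00811), from 21.2, 30.3 and 29.1 CPM to 35.0, 39.2 and 39.8 CPM. Normal glucose replicate 1 was the lowest sample of Sik2, and its log2 fold change without that replicate was 0.34. Camk2a, a calcium/calmodulin-dependent kinase, rose by 0.62 (SE 0.17, edgeR adjusted P = 0.0162), but its call was lost without high glucose replicate 1 (0.53, adjusted P = 0.0752) or 3 (0.47, adjusted P = 0.0779). Camk1d, of the calcium/calmodulin-dependent kinase I group, fell by 0.60 (SE 0.11, edgeR adjusted P = 0.00224), from 2.98 ± 0.257 to 1.97 ± 0.152 CPM (SD, n = 3 each).

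The 14-3-3 proteins, which bind the phosphorylated deacetylases, all had negative log2 fold changes (median -0.15). Of the 7, 3 were called lower and 0 higher, beside 14.5% and 16.9% of all tested genes. All 7 stayed negative under each other scaling and after removal of the length trend, with 4 to 6 called lower. All of these settings shift the median of all genes downwards, by -0.115 under library size scaling, so they are no check on these negative signs. More of all tested genes were also called lower in each, up to 4884 of 19015 under library size scaling, from 2757. Ywhah (14-3-3 eta) fell by 0.21 (SE 0.048, edgeR adjusted P = 0.00722). Ywhae (14-3-3 epsilon) fell by 0.22 (SE 0.067, edgeR adjusted P = 0.0322), a call lost without high glucose replicate 1 (-0.22, adjusted P = 0.0901) or 3 (-0.21, adjusted P = 0.0991). The other called member was Sfn (14-3-3 sigma), which had a mean of 1.47 CPM in high glucose and is named after its values were seen. The list of phosphatases and calcineurin subunits, which oppose these kinases, also holds the calcineurin inhibitors Rcan1 and Rcan2. Of its 10 genes, 2 (20%) were called higher, near the 16.9% of all tested genes. None was called lower, beside 14.5% of all tested genes, and under library size scaling 2 were higher and 2 lower. Those called higher were Ppp3ca, the calcineurin catalytic subunit (log2 fold change 0.41, SE 0.081, edgeR adjusted P = 0.00342), and Rcan1, a calcineurin inhibitor that calcineurin signalling induces (0.27, SE 0.054, edgeR adjusted P = 0.00385). Ppp3ca had 136, 115 and 109 CPM in normal glucose and 155, 169 and 153 CPM in high glucose, so normal glucose replicate 1 was there the highest of its group.

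The list of corepressors that work with class IIa deacetylases also holds other partners, namely Bcl6, Dnajb6, Ankra2 and Rfxank. Of its 14 genes, 6 were called higher, Bcl6 and Dnajb6 among them, and 1 lower, beside 16.9% and 14.5% of all tested genes. The median log2 fold change of the list was 0.16. Under library size scaling 3 were higher and 2 lower (median 0.042), and with the length trend removed 5 and 3 (0.13). Ncor1, the scaffold of the NCoR complex, had 106, 138 and 131 CPM in normal glucose and 168, 170 and 173 CPM in high glucose. This is a rise of 0.45 on the log2 scale (SE 0.087, edgeR adjusted P = 0.00313), and of 0.32 without normal glucose replicate 1. The lowest log2 fold change of Ncor1 over 17 other settings was 0.24. Bcl6, a zinc finger repressor that binds class IIa deacetylases, rose by 0.33 (SE 0.050, edgeR adjusted P = 6.61e-04), and Bcor, its corepressor, by 0.32 (SE 0.070, edgeR adjusted P = 0.00608). Hdac3, the catalytic partner in the complex, stayed short of the threshold at a log2 fold change of -0.12.

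The list of Mef2 coactivators and upstream kinases also holds Nfat factors and the inhibitor Cabin1. Of its 15 genes, 6 were called higher and 0 lower (median log2 fold change 0.17), beside 16.9% and 14.5% of all tested genes. Under library size scaling 2 were higher and 1 lower (0.060), and with the length trend removed 4 and 0 (0.11). Ep300, the p300 acetyltransferase, had 40.9, 62.3 and 60.1 CPM in normal glucose and 83.9, 79.5 and 84.8 CPM in high glucose, which is a rise of 0.60 on the log2 scale (SE 0.13, edgeR adjusted P = 0.00524), and of 0.42 without normal glucose replicate 1. Cabin1, a calcineurin inhibitor that also holds MEF2 inactive, rose from 61.6 ± 4.88 to 85.0 ± 2.81 CPM (SD, n = 3 each; log2 fold change 0.46, SE 0.065, edgeR adjusted P = 3.77e-04). The acetyltransferases Kat2b (0.30, SE 0.070, edgeR adjusted P = 0.00878) and Crebbp (0.29, SE 0.074, edgeR adjusted P = 0.0129) rose less. The call of Kat2b was lost without high glucose replicate 2 (0.24, edgeR adjusted P = 0.0545) and under library size scaling (0.18, adjusted P = 0.0655). That of Crebbp was lost without normal glucose replicate 3 (0.28, edgeR adjusted P = 0.062) or high glucose replicate 1 (0.21, adjusted P = 0.0889). It was also lost under library size scaling (0.18, edgeR adjusted P = 0.102) and after removal of the transcript length trend (0.029, adjusted P = 0.753).

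Known MEF2 target genes went in both directions. Of the 16 listed, 11 had enough counts, 5 were called lower, 2 higher and 4 neither, beside 14.5% of all tested genes lower and 16.9% higher. The median log2 fold change was -0.23. It lay between -0.34 and -0.24 under the other scalings and at -0.25 with the length trend removed, settings that shift all genes downwards. Mmp10, a matrix metalloproteinase that HDAC7 is known to repress through MEF2 in ECs, had 10.6, 8.81 and 10.0 CPM in normal glucose and 2.74, 3.48 and 2.51 CPM in high glucose. Every high glucose sample of Mmp10 was far below every normal glucose sample, and Mmp10 fell by 1.75 on the log2 scale (SE 0.13, edgeR adjusted P = 4.05e-06). The Krüppel-like factors Klf4 and Klf2, flow-responsive genes driven by MEF2 in ECs, fell by 0.72 (SE 0.054, edgeR adjusted P = 5.04e-06) and by 0.48 (SE 0.074, edgeR adjusted P = 7.1e-04). Klf4 went from 49.3, 52.9 and 53.9 CPM to 31.6, 31.0 and 32.1 CPM. The orphan nuclear receptor Nr4a1 fell by 0.30 (SE 0.058, edgeR adjusted P = 0.0031), from 69.2 ± 1.27 to 56.2 ± 3.62 CPM (SD, n = 3 each). The other called genes, named after their values were seen, were Des (desmin), which was lower, and Jun (an AP-1 subunit) and Ppargc1a (PGC-1alpha), which were higher. Jun, the more abundant of these, had 86.9, 84.9 and 89.0 CPM in normal glucose and 104, 100.2 and 103 CPM in high glucose. Des is also one of the smooth muscle markers above, and it and Ppargc1a lay below 1.4 CPM in every sample.

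**Figure D5:**
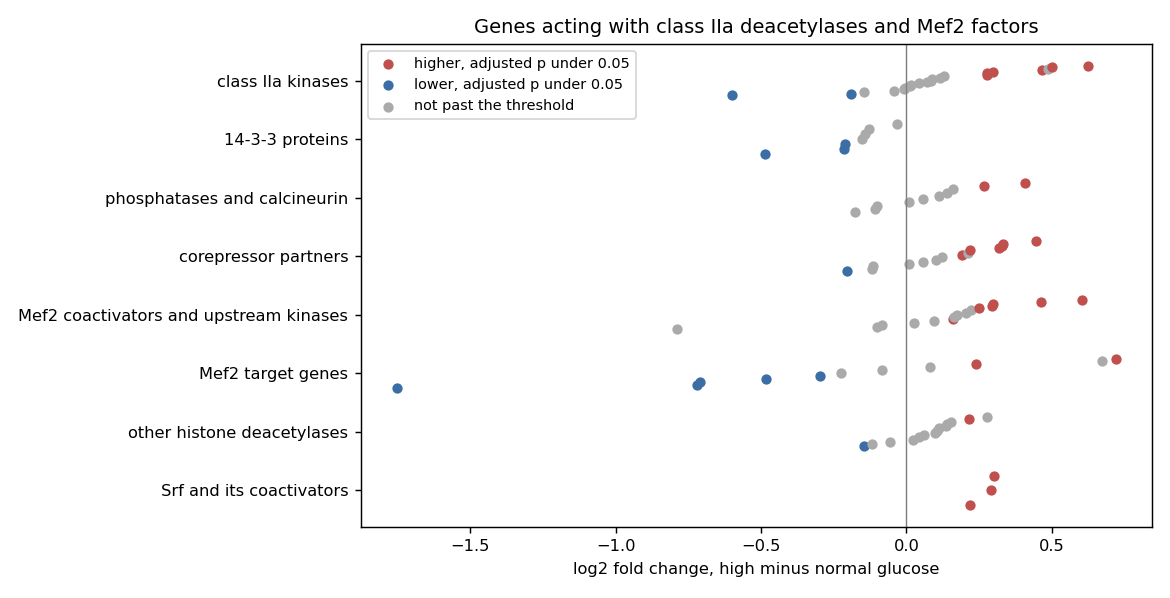
Log2 fold change, high minus normal glucose (x axis), of each tested gene of the lists of partners and targets, coloured by whether it passed an adjusted P value of 0.05. The 14-3-3 genes all lay left of 0, and the Mef2 targets spread from -1.75 to 0.72. Right of 0 lay 11 of 14 genes of the corepressor list (8 under library size scaling). So did 12 of 15 genes of the list of Mef2 coactivators and upstream kinases (10 under library size scaling), which also holds the inhibitor Cabin1.

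The MEF2 consensus, a palindromic A/T-rich motif that reads the same on both strands, and the related CArG box bound by SRF were searched in the RefSeq windows of 8 members and 12 listed targets. The consensus was in 2 of the 14 windows of the members and in 4 of the 12 windows of the targets, against 3.19% of all 32851 windows. The targets were listed as known MEF2 targets, and some members gave several windows, partly overlapping for Hdac7. These shares are therefore a description without a test. CArG boxes were in 0 of the members' and 0 of the targets' windows, against 1.63% of all windows. The matches are shown with 5 bases on each side, 5′ to 3′ on the strand of the gene. The consensus is in capitals, so that the 2 members can be compared with the 4 targets that held a match:
Hdac5, chr11:102230178-102230197, minus strand: tgagcCTATTTTTAGctcgg
Mef2a, chr7:67372846-67372865, minus strand: gactcCTAAAAATAGccccg
Jun, chr4:95052241-95052260, minus strand: atgggCTATTTTTAGggatt
Klf2, chr8:72318939-72318958, plus strand: cgcggCTAAATTTAGgctga
Mmp10, chr9:7502256-7502275, plus strand: ttggaTTAAAAATAGcaccc
Xirp2, chr2:67445923-67445942, plus strand: agttcCTAAAAATAGgtgct
The consensus began 20 bases before the start of Hdac5, 2 before that of Mef2a, 33 before Jun, 118 before Klf2, 81 before Mmp10 and 74 before Xirp2. Genes with a match went in different directions here, as Mmp10 and Klf2 fell, Jun rose, Hdac5 and Mef2a had log2 fold changes of 0.10 and 0.03, and Xirp2, a muscle gene, had at most 11 counts. A match describes the letters of the window, and none in the windows of Hdac9 says only that these letters are not there.

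SRF, whose CArG box is close to the MEF2 motif, and its coactivators were called higher for 3 of the 3 genes with enough counts, Myocd having too few. Of all tested genes, 16.9% were called higher. Only 2 of the 3 were called under RLE scaling, 0 under library size scaling and 1 under upper quartile scaling or with the length trend removed. Mrtfa rose by 0.29 (SE 0.065, edgeR adjusted P = 0.00682). Mrtfb rose by 0.30 (SE 0.096, edgeR adjusted P = 0.0371), with 0.17 without normal glucose replicate 1, and its call was lost without normal glucose replicate 3 (0.31, adjusted P = 0.0965) or any high glucose replicate (0.26 to 0.30). Srf rose by 0.22 (SE 0.071, edgeR adjusted P = 0.0395), a call kept in 4 of 17 other settings and lost without normal glucose replicate 1 (0.13, adjusted P = 0.0971) or 2 (0.21, 0.0844), or high glucose replicate 1 (0.17, 0.196), 2 (0.23, 0.0692) or 3 (0.20, 0.14).

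Of the remaining histone deacetylases and sirtuins, 1 of 14 was called higher and 1 lower (7.14% each), beside 16.9% and 14.5% of all tested genes. Under library size scaling 0 were higher and 3 lower, where 1819 and 4884 of the 19015 genes were called. Their log2 fold changes lay between -0.15 and 0.28. Hdac1, of class I, fell by 0.15 (SE 0.046, edgeR adjusted P = 0.0356), which was past the threshold in 11 of 17 other settings and not without normal glucose replicate 3 (adjusted P = 0.0655) or high glucose replicate 1 (0.0968), 2 (0.0723) or 3 (0.0936). Hdac11, of class IV, rose by 0.21 (SE 0.059, edgeR adjusted P = 0.0198), which was past the threshold in 10 of 17 and not without normal glucose replicate 2 (adjusted P = 0.0652) or high glucose replicate 1 (0.103), 2 (0.0508) or 3 (0.115). The log2 fold change of Hdac9 lay outside the range of all these deacetylases.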

How the data were processed

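Bulk RNA-sequencing of 6 cultures (3 per glucose condition) was analysed, with groups and replicate numbers taken from the sample labels. Trimmomatic (read trimming), HISAT2 (alignment to GRCm38) and StringTie (counting) were the authors' tools, and the deposited counts per gene are not normalized. Per the submitters' processing notes, edgeR was also used. Versions, the annotation release and the strand setting are not given in the sources used here. Whether both reads of a pair were counted is not stated either, so halved counts were tried, and limits from counts cover counting error only. Total counts lay between 120192466 and 146881356 per sample, where 3 counts equal 0.0204 to 0.025 CPM.

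In R 4.3.3, edgeR 4.0.16 filtered genes (filterByExpr with a minimum of 10 counts and a total of 15), scaled libraries by TMM and ran the quasi-likelihood test, with calls at a Benjamini-Hochberg adjusted P value under 0.05. The TMM factors were 1.03 to 1.05 in normal and 0.954 to 0.966 in high glucose. Standard errors were taken from the test statistic, and exact permutation tests of 3 samples against 3 cannot go below 0.1. The fit was checked on simulated counts. Replicates differed by more than sampling noise (chi-square per degree of freedom of at least 9.03), and the biological coefficient of variation was 8.44%. Of the 55487 identifiers, 55227 had a symbol. Exon lengths and positions came from GENCODE vM21 and windows around start sites from RefSeq (GRCm38.p6). Figures were drawn with matplotlib 3.10.9.

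The members and lists were chosen with earlier results of these data known. Named genes are the 8 members, up to 4 called genes per list with the largest change and a mean log2 CPM of at least 1, the nearest protein-coding genes beside called members, and the 5 genes most like Hdac9; 1 gene picked by this rule is not reported here. Alternatives were other scalings (RLE, library size, upper quartile), filters (none beyond 1 count, 1 CPM in 3 samples), a threshold of 0.01, the likelihood ratio test, DESeq2 1.42.0, halved counts, a replicate block and each sample left out. After seeing the data, a per-sample offset for transcript length (a lowess of log2 CPM on log2 length; 21 genes without a length got none) and levels by longest transcript were added.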

Additional observations from a re-analysis of the deposited data

How the results depend on the processing

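As a description of members chosen on this contrast, the log2 fold change of Hdac9 lay between 1.16 (transcript length offset, added after seeing the data) and 1.39 over 17 other settings, and that of Hdac4 between 0.05 and 0.25. Members called higher were 2 in every setting but library size scaling and the length offset, each with 1 (Hdac9), and the members called lower were 0 throughout. With a sample left out, called members stayed at 2 higher and 0 lower. Signs turned for Hdac5 under library size scaling (-0.015) and for Mef2a under library size scaling (-0.083), upper quartile scaling (-0.011) and the length offset (-0.064), and without normal glucose replicate 1 (-0.052) or high glucose replicate 2 (-0.019), its highest value with a sample left out being 0.079; the cause was not tested. Hdac7 (0.023 to 0.16), Mef2c (0.026 to 0.20) and Mef2d (0.0001 to 0.12) kept their sign in the 17 settings, as Mef2b (0.23 to 0.47) did in 16, since it is not tested under the 1 CPM filter.

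Library size scaling shifted the median over all genes by -0.115 (log2), the genes called higher and lower from 3212 and 2757 to 1819 and 4884, and the called pathway genes from 26 and 12 to 13 and 22. A threshold of 0.01 gave 1946 and 1671 genes, and 15 and 7 pathway genes. Without a filter beyond 1 count, 16 pathway genes were called higher. With the length offset, 2864 and 3369 genes and 21 and 17 pathway genes were called. Leaving out samples gave 1988 to 3149 genes higher, 2048 to 3065 lower, and 15 to 26 and 7 to 14 pathway genes; the lowest came without high glucose replicate 1 (2010 genes higher, 15 and 7 pathway genes) or 3 (1988 genes higher, 15 pathway genes higher). The share of Hdac9 in the class IIa sum was 0.77% and 1.77% by raw counts and 0.53% and 1.22% by longest transcript, with 0.410% to 0.435% and 0.934% to 1.04% when a sample was left out.

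Both groups have replicates 1 to 3 in the labels. Deviations of same-numbered samples correlated at -0.0248, 0.00377 and 0.0127, and 2 of 6 samples correlated best with their own number, so the numbers were not taken to pair samples. With a replicate block, 2909 genes were called higher and 2418 lower, 24 and 10 pathway genes, and 2 members higher and 0 lower.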
